A study of Mus musculus with 9 samples.

Results

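The genes described here are 10 haematopoietic growth factor receptor genes: Kit, Flt3, Csf1r, Csf3r, Csf2ra, Csf2rb, Csf2rb2, Il3ra, Il6ra and Il1r1. They were found as the probe sets whose only gene symbol in the array annotation is 1 of these names, which gave 17 probe sets of the 34958 with a single symbol and 10 of 18194 genes. All 10 genes and 16 of the 17 probe sets passed a filter on low values (at least 3 of 9 arrays above the 40th percentile of their array), as did 12826 genes in all. Csf2rb2 passed it through the Sox4 arrays alone, so a count over genes that passed is not free of that choice. The levels are log2 intensities of Affymetrix mouse arrays, and each gene is represented by its brightest probe set unless another is named.

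Growth factor receptors carry signals for survival, division and maturation from the marrow into blood progenitors. Kit, Flt3 and Csf1r are receptor tyrosine kinases that dimerise when they bind their ligand, whereas the receptors for GM-CSF, IL-3, IL-6 and IL-1 are built from a ligand-specific chain and a signalling chain that several receptors share. In the myeloid lineage, transcription factors such as PU.1 and C/EBPα are known to act on several of these genes, and activated Flt3 and Kit are well known from acute myeloid leukaemia.

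Cells of a myeloid progenitor fraction, FrII, were sorted as Lin-, Sca-1-, c-Kit+ cells with low or positive Mac1 from C57/BL6 mice aged 2 to 4 months. The tissue label of every sample is blood. There were 3 arrays from wild type mice, 3 from leukaemic mice overexpressing Sox4, a transcription factor gene of the SRY-related family, and 3 from K/L leukaemic mice, where K/L stands for mutations in both alleles of Cebpa, the gene of C/EBPα. The source names of the leukaemic cells add a CD45.1-, CD45.2+ gate that those of the wild type cells do not list. The sources used here do not give how Sox4 was overexpressed, how the leukaemias were raised, or whether arrays share a clone, donor or pool. n therefore counts arrays, and p-values measure the spread between these arrays, which may be technical.

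The probe set used for Sox4 read 3.87 ± 0.08 in wild type cells, 9.74 ± 0.13 in Sox4 cells, and 10.67 ± 0.18 in those with K/L (mean ± SD, n = 3), though the changes of its 6 tested probe sets between Sox4 and wild type cells ran from -0.88 to 5.87. The progenitor marker Mpo was high in every group, at 13.81 to 13.90. Itgam, which encodes the Mac1 alpha chain of the gate, measured 4.91, 4.20 and 3.83, around or under the 40th percentile. Against wild type, 8 gate and progenitor markers besides Kit were tested, Mpo among them. In K/L cells 1 rose and 4 fell (29.0% and 21.6% of all tested genes). In Sox4 cells 1 rose and 3 fell (26.7% and 21.1%). Prtn3 was the gene that rose in both, and Elane fell from 12.8 to 8.8 in K/L cells. The level of Mpo thus does not show that the groups were matched progenitors. Array medians lay between 5.43 and 5.55, and the 40th percentile lay between 4.84 and 4.95, so a value near 5 is a weak signal. Wild type array 3 stood apart: its correlations with the other wild type arrays were 0.979 and 0.977, against at least 0.991 within every other pair. Of the receptor genes, 8 read lower on it than on the mean of wild type arrays 1 and 2, by the widest margin for Csf2rb (-1.53), a gap that 0.671% of all genes matched or passed. Calls of the receptor genes that this array changes are given with and without it.

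The receptor genes split into those raised in both leukaemias and those raised in Sox4 cells while K/L cells stayed near wild type. Csf2ra, Il3ra and Il6ra rose in Sox4 and in K/L cells, by 1.70- to 5.35-fold and 2.09- to 7.81-fold. Flt3, Csf1r and Csf2rb2 rose 9.47-, 3.07- and 3.80-fold in Sox4 cells, and their K/L levels did not pass the test against wild type. Il1r1 rose 5.82-fold in Sox4 cells and 1.30-fold in K/L cells. Kit passed the test in no comparison, Csf3r was lower in K/L cells, and Csf2rb varied most among the wild type arrays.

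In numbers, 7 of the 10 genes rose in Sox4 cells against wild type and 0 fell at an adjusted p of 0.05 in limma, where 47.8% of all tested genes passed (26.7% higher, 21.1% lower). Their median change was 1.59 on the log2 scale, against 0.03 over all tested genes, and 6 changed at least 2-fold, as did 15.6% of all tested genes. Csf2rb2, which passed the filter through the Sox4 arrays alone, is among the 7 and the 6. At a filter on the 60th percentile, which it failed, 6 of 9 genes rose and 0 fell. Over all genes at that filter, 3097 of 9453 rose and 2386 fell. There, 1 receptor gene was higher and 4 were lower in K/L than in Sox4 cells. Of the same 9453 genes, 1700 were higher and 1521 lower in that comparison. The receptor genes were chosen with earlier results of these data known, so no enrichment is read from the counts. For K/L against wild type, 4 rose and 1 fell with a median of 0.18 against 0.06 over all genes, where 50.6% of tested genes passed (29.0% higher, 21.6% lower). K/L cells differed from Sox4 cells in 6 of the 10, with 1 higher and 5 lower and a median of -0.85 against 0.03, where 28.9% of tested genes passed (14.9% higher, 14.0% lower). Leaving out wild type array 3 gave 9 genes in that last comparison, and leaving out Sox4 array 1 gave 3 with Csf2rb2 no longer tested. The count over all genes moved in the same way. It was 4751 of 12689 tested genes without wild type array 3 and 2648 of 12673 without Sox4 array 1. With all arrays it was 3702 of 12826. Both comparisons with wild type share the same 3 wild type arrays, so their agreement is not independent. The arrays of the 2 groups did not overlap in 8 genes for Sox4 against wild type, all 8 higher in Sox4, where 56.2% of all tested genes did not overlap (31.1% higher, 25.1% lower). The same held for 4 genes in K/L against wild type, all 4 higher in K/L (58.1% of all tested genes, 33.0% higher and 25.1% lower), and for 9 in K/L against Sox4, 7 of them lower in K/L (51.1% of all tested genes, 27.3% higher and 23.8% lower).

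**Figure D1:**
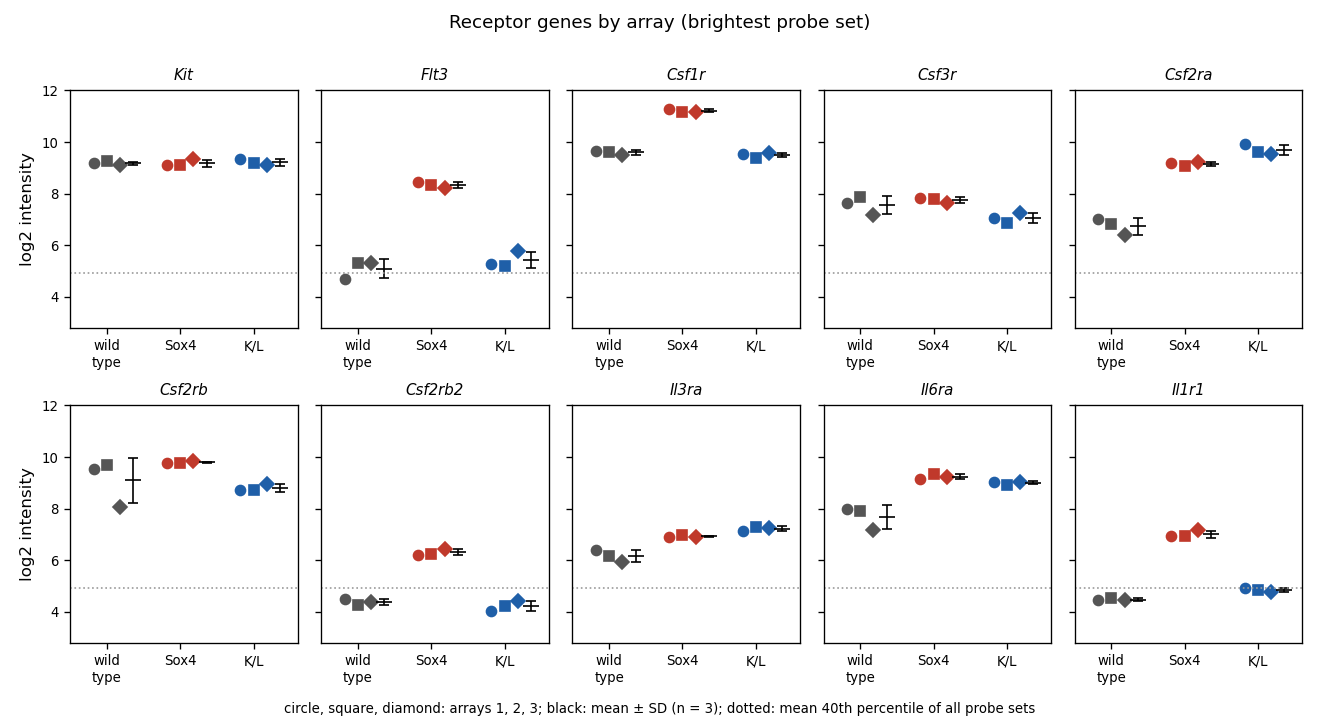
Log2 intensity (vertical axis) of the brightest probe set of each receptor gene on the 9 arrays, with arrays 1, 2 and 3 of a group as circle, square and diamond, mean ± SD in black (n = 3) and the mean 40th percentile of all probe sets as a dotted line. The 3 Sox4 arrays of Flt3 lie between 8.23 and 8.45, above every wild type and K/L array, whereas Csf2ra is higher than wild type in both leukaemias and wild type array 3 lies apart for Csf2rb.

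Promoter sequence was available for 8 of the 10 genes in RefSeq's table (assembly GRCm38.p6, 10 windows as Kit and Il1r1 have 2 starts each). Those of 3 genes whose changes set the groups apart are shown: Flt3 and Csf2rb2, which rose in Sox4 cells, and Il6ra, which rose in both leukaemias. Each line is the 200 bases before the annotated start, read 5′ to 3′ on the gene's strand (minus for all 3), with capitals on matches to GAGGAA, the core that PU.1 binds, on either strand.
Il6ra, chr3:89913197-89913396: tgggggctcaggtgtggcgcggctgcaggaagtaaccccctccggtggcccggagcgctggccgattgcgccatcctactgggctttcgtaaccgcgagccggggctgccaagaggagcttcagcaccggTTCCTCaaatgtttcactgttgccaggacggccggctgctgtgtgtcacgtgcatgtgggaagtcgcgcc
Flt3, chr5:147400490-147400689: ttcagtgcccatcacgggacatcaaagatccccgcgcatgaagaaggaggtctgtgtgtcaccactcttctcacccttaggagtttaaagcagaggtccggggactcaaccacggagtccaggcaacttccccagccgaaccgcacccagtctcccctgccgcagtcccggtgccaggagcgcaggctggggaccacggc
Csf2rb2, chr15:78305722-78305921: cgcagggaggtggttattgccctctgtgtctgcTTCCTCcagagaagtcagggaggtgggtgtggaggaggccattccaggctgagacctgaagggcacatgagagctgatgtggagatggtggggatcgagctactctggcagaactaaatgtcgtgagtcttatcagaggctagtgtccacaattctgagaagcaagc

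Il6ra and Csf2rb2 each held 1 such match (as TTCCTC), 70 to 65 and 167 to 162 bases before the start, and the Flt3 stretch held none. Shorter windows of 30 bases show the matches of 3 more genes, Csf2ra with GAGGAA on the minus strand and Il3ra and Il1r1 with TTGCNNAA, a core of C/EBP sites, on the plus strand.
Csf2ra, chr19:61228419-61228448: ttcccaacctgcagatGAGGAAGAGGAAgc
Il3ra, chr14:14346350-14346379: atctcaggaagTTGCTCAAtctcgggacca
Il1r1, chr1:40224936-40224965: gcctggcacgtTTGCTGAAtgcttctggct

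In Csf2ra, the member with the largest rise in K/L cells, 2 copies of GAGGAA stood in tandem 14 to 3 bases before the start. The C/EBP matches of Il3ra and Il1r1 lay 134 to 127 and 133 to 126 bases before theirs, and the second Il1r1 start had none. Over the 250 bases before a start, on both strands, GAGGAA stood in 6 of the 10 windows of these genes and in 23.3% of 32851 windows of all genes, and TTGCNNAA in 2 of 10 and in 9.56%. The 2 Kit windows overlap and share 1 GAGGAA run, so that motif was found in 5 of the 8 genes. A GATA core, spelled AGATAA, stood in 1 window and in 9.99% of all windows. The core of RUNX sites, spelled TGTGGT, stood in 0 windows of these genes and in 14.0% of all windows. That of Sox factors, spelled ACAAAG, stood in 0 and in 16.5% of all windows, and that of Meis factors, spelled TGACAG, in 0 and in 15.9%. A match is a run of letters and no evidence of binding, and the windows with a match include genes from each pattern of change.

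Among the receptor tyrosine kinases, Kit, the stem cell factor receptor, is part of the sort gate. Its level was 9.17, 9.25 and 9.11 on wild type arrays 1 to 3, 9.10, 9.11 and 9.34 on Sox4 arrays and 9.36, 9.19 and 9.11 on K/L arrays. The 3 groups overlapped, and the differences from wild type were 0.01 (95% interval -0.23 to 0.25) for Sox4 and 0.04 (-0.20 to 0.28) for K/L cells, with adjusted p = 0.956 and 0.776. Its second probe set ranged from 8.61 to 9.08 over all arrays and passed in no comparison either. Kit had the narrowest spread of the receptor genes over the 9 arrays, with an SD of 0.10.

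Flt3, the receptor of Flt3 ligand on multipotent and lymphoid-primed progenitors and dendritic cell precursors, had the largest rise in Sox4 cells. It read 4.68, 5.30 and 5.30 in wild type, 8.45, 8.33 and 8.23 in Sox4 and 5.29, 5.19 and 5.77 in K/L cells. Sox4 arrays lay far above the rest, while wild type and K/L arrays overlapped near the 40th percentile. The rise was 3.24 ± 0.20 (log2 change ± SE, adjusted p = 1.09e-06), which ranked 136 in size of 12826 tested genes. K/L cells differed from wild type by 0.32 ± 0.20 (adjusted p = 0.205, interval -0.12 to 0.76) and from Sox4 cells by -2.92 ± 0.20 (adjusted p = 2.89e-06). Since the wild type and K/L values are weak signals, the fold rests on a level close to the background.

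Csf1r, the M-CSF receptor that marks the monocyte and macrophage lineage, was well above the array median in every group. Its brightest probe set read 9.66, 9.63 and 9.50 in wild type, 11.30, 11.17 and 11.18 in Sox4 and 9.54, 9.39 and 9.56 in K/L cells. Again the Sox4 arrays stood above all others and the other groups overlapped. Sox4 cells were higher than wild type by 1.62 ± 0.10 (adjusted p = 9.06e-07), and K/L cells differed from Sox4 cells by -1.72 ± 0.10 (adjusted p = 8.19e-07). All 3 probe sets of the gene rose in Sox4 cells, by 1.17 to 1.65. Against wild type, K/L cells differed by -0.10 ± 0.10 (adjusted p = 0.404) in the brightest and by 0.23 and 0.18 in the other 2, none past the threshold.

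Csf3r, the G-CSF receptor of the granulocyte lineage, was the only receptor gene lower in K/L cells than in wild type cells by the test. It read 7.62, 7.89 and 7.18 in wild type, 7.83, 7.79 and 7.64 in Sox4 and 7.05, 6.85 and 7.27 in K/L cells. The Sox4 arrays lay above all K/L arrays, while wild type array 3 fell among the K/L values. The difference between K/L and wild type was -0.51 ± 0.18 (adjusted p = 0.0356), and it missed the threshold with arrays centred on their median (-0.41, adjusted p = 0.0735), with quantile normalisation (adjusted p = 0.0574), with no filter (0.0659), with only those 2 groups in the fit (0.0695), and without wild type array 1 (-0.48, adjusted p = 0.0900), wild type array 2 (-0.35, 0.119), K/L array 1 (-0.50, 0.0809) or K/L array 2 (-0.40, 0.123). Without wild type array 3 it was -0.70 (adjusted p = 0.00287). K/L cells were lower than Sox4 cells by the same kind of margin (-0.70 ± 0.18, adjusted p = 0.0143), which missed the threshold without Sox4 array 1 (-0.66, adjusted p = 0.0538) or K/L array 2 (-0.60, 0.0571). Sox4 and wild type cells differed by 0.19 ± 0.18 (adjusted p = 0.400), and by 0.00060 without wild type array 3 (adjusted p = 0.998).

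**Figure D2:**
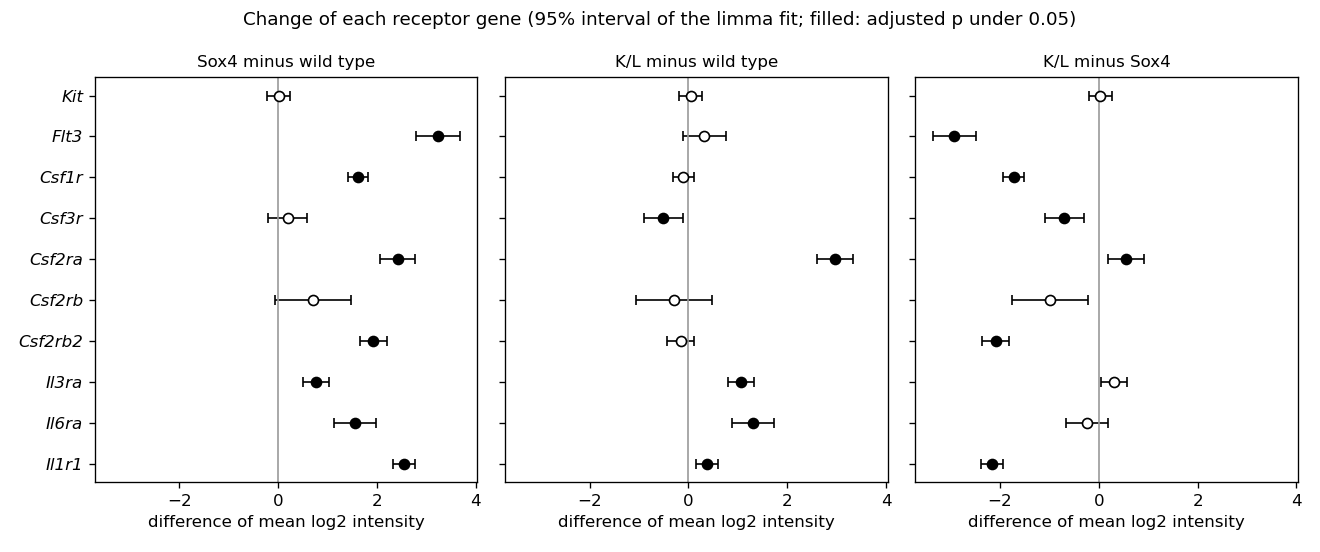
Difference of mean log2 intensity (horizontal axis) of each receptor gene in the 3 comparisons, with the 95% interval of the limma fit; filled points have an adjusted p under 0.05. Of the 10 points, 7 are filled and to the right for Sox4 minus wild type, and 5 are filled and to the left for K/L minus Sox4.

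The receptors of GM-CSF, IL-3 and IL-5 each pair a ligand-binding alpha chain with a beta chain. Csf2ra, the GM-CSF alpha chain, had the largest rise of the receptor genes in K/L cells. It read 7.01, 6.81 and 6.38 in wild type, 9.17, 9.08 and 9.21 in Sox4 and 9.93, 9.63 and 9.54 in K/L cells. The 3 groups did not overlap, with K/L highest. Sox4 cells exceeded wild type by 2.42 ± 0.16 (adjusted p = 2.27e-06) and K/L cells by 2.97 ± 0.16 (adjusted p = 4.87e-07), where the rise ranked 228 in size of all tested genes.

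The order of the leukaemias for Csf2ra rested on 1 probe set. K/L cells were 0.55 ± 0.16 above Sox4 cells (adjusted p = 0.0309) in the brightest, but -0.02 (adjusted p = 0.968) in the second, which read 5.90, 6.81 and 5.77 in wild type, 7.55, 7.60 and 7.61 in Sox4 and 7.72, 7.94 and 7.05 in K/L cells. Both probe sets rose in both leukaemias, the second by 1.43 in Sox4 and 1.41 in K/L cells. The mean of the 2 gave 0.26 between the leukaemias (adjusted p = 0.328), and the brightest alone missed the threshold with no filter (adjusted p = 0.0572) and without Sox4 array 1 (0.55, adjusted p = 0.0771), 2 (0.51, 0.0951) or 3 (0.57, 0.0678) or K/L array 1 (0.43, 0.115) or 2 (0.58, 0.0596).

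Il3ra, the IL-3 alpha chain, followed the same order of groups. Its values were 6.38, 6.16 and 5.93 in wild type, 6.89, 6.96 and 6.91 in Sox4 and 7.12, 7.29 and 7.27 in K/L cells. No group overlapped another. It rose by 0.76 ± 0.12 in Sox4 cells (adjusted p = 0.000527) and by 1.07 ± 0.12 in K/L cells (adjusted p = 5.8e-05). The 0.30 ± 0.12 between the leukaemias did not pass in the fit of all arrays (adjusted p = 0.0880) and passed without wild type array 3 (adjusted p = 0.0255), with only the 2 leukaemias in the fit (0.0196), with arrays centred on their median (0.38, adjusted p = 0.0340) and with quantile normalisation (0.37, adjusted p = 0.0354).

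Csf2rb, the beta chain common to the GM-CSF, IL-3 and IL-5 receptors, read 9.52, 9.68 and 8.07 in wild type, 9.78, 9.76 and 9.83 in Sox4 and 8.72, 8.71 and 8.96 in K/L cells. Wild type arrays 1 and 2 lay close to the Sox4 arrays and array 3 lay below every K/L array. With all 9 arrays Csf2rb passed in no comparison: 0.70 ± 0.34 for Sox4 against wild type (adjusted p = 0.122), -0.29 ± 0.34 for K/L against wild type (adjusted p = 0.508) and -0.99 ± 0.34 for K/L against Sox4 (adjusted p = 0.0551). Without wild type array 3 the K/L level was lower than wild type by -0.81 (adjusted p = 0.000258) and lower than Sox4 by -0.99 (adjusted p = 5.81e-05), and the Sox4 difference from wild type was 0.19 (adjusted p = 0.173). Leaving out wild type array 2 instead gave 0.99 for Sox4 against wild type (adjusted p = 0.0407) and an adjusted p of 0.0379 for K/L against Sox4. That last difference also passed in the mean of both probe sets (-1.01, adjusted p = 0.0405), with quantile normalisation (0.0451), on a log2(value + 16) scale (0.0414) and with only the 2 leukaemias in the fit (0.000183). The second Csf2rb probe set read 8.80, 9.01 and 7.51 in wild type, 9.02, 9.07 and 9.16 in Sox4 and 8.17, 7.87 and 8.17 in K/L cells, and its difference of -1.02 between K/L and Sox4 passed over all probe sets (adjusted p = 0.0391).

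Csf2rb2 encodes the mouse beta chain that pairs with the IL-3 alpha chain only, and it lies beside Csf2rb on chromosome 15. It read 4.50, 4.25 and 4.39 in wild type, 6.22, 6.26 and 6.45 in Sox4 and 4.02, 4.24 and 4.41 in K/L cells. Only the Sox4 arrays were above the 40th percentile, and wild type and K/L arrays overlapped below it. It rose by 1.93 ± 0.13 in Sox4 cells (adjusted p = 1.69e-06), and K/L cells differed from Sox4 cells by -2.09 ± 0.13 (adjusted p = 1.27e-06) and from wild type by -0.16 ± 0.13 (adjusted p = 0.319). With any Sox4 array left out the gene fell under the filter and was not tested.

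The 2 beta chain genes are near-identical copies, so their separate levels are uncertain. A probe set annotated to both read 8.06, 8.14 and 7.31 in wild type, 8.16, 8.36 and 8.27 in Sox4 and 7.87, 8.0 and 7.54 in K/L cells. Its Sox4 arrays were the highest and wild type array 3 was again the lowest. It differed by 0.43 between Sox4 and wild type (adjusted p = 0.131) and by -0.46 between K/L and Sox4 (adjusted p = 0.144), in a fit over all 29174 probe sets that passed the filter.

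Il5ra, the IL-5 alpha chain that uses the same common beta chain and marks eosinophil precursors, moved in opposite directions. Its only probe set read 7.22, 7.08 and 6.28 in wild type, 4.76, 5.28 and 5.09 in Sox4 and 8.98, 8.96 and 9.07 in K/L cells. Sox4 arrays lay below and K/L arrays above all wild type arrays. Against wild type it fell by 1.82 in Sox4 cells (adjusted p = 0.000127) and rose by 2.15 in K/L cells (adjusted p = 4.14e-05). The 3 alpha chains of this receptor family thus rose together in K/L cells, and Il5ra parted from Csf2ra and Il3ra in Sox4 cells.

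**Figure D3:**
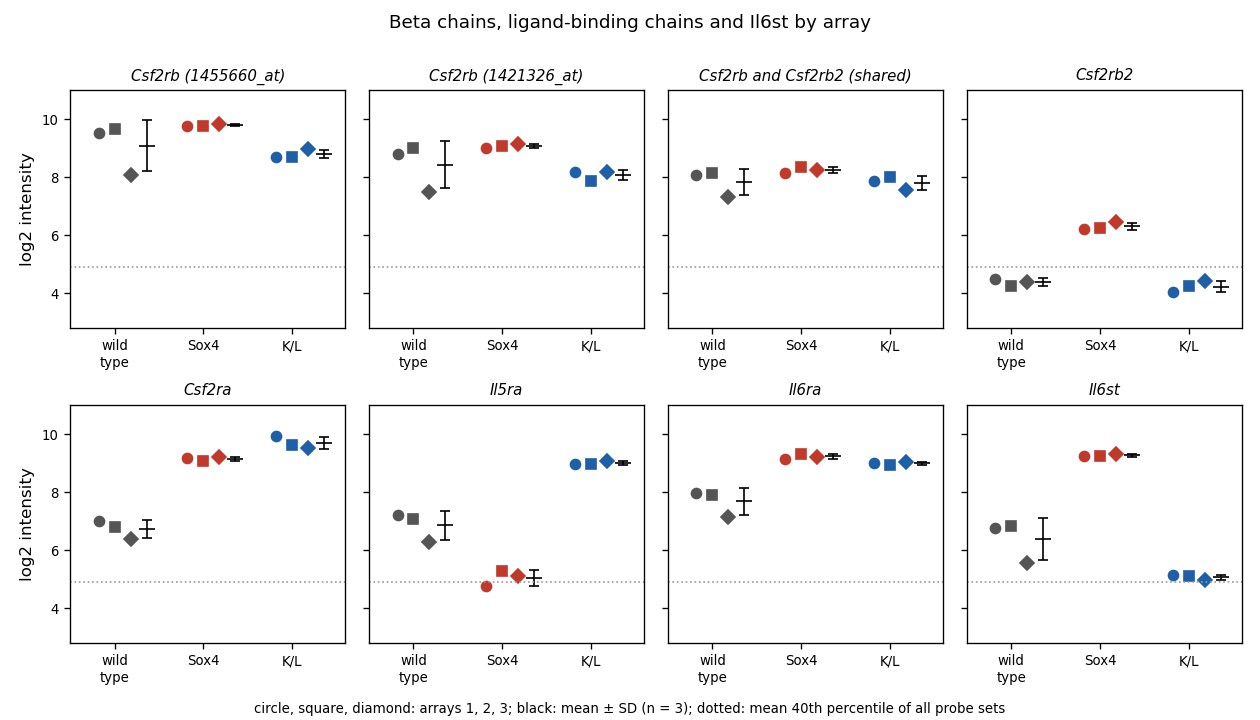
Log2 intensity by array (vertical axis; arrays 1, 2 and 3 as circle, square and diamond, mean ± SD in black, n = 3, dotted line at the mean 40th percentile) of the beta chain probe sets, the alpha chains Csf2ra and Il5ra, and the IL-6 receptor pair Il6ra and Il6st. Wild type array 3 is the lowest array for both Csf2rb probe sets, and Il5ra and Il6st lie on opposite sides of wild type in the 2 leukaemias.

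Il6ra binds IL-6, and Il6st encodes gp130, the signalling chain that the receptors of the IL-6 family share. Il6ra read 7.98, 7.92 and 7.16 in wild type, 9.15, 9.33 and 9.23 in Sox4 and 9.02, 8.93 and 9.04 in K/L cells. Both leukaemias lay above every wild type array, with Sox4 above K/L by a small margin. It rose by 1.55 ± 0.19 in Sox4 cells (adjusted p = 0.000113) and by 1.31 ± 0.19 in K/L cells (adjusted p = 0.000331), and its second probe set by 1.05 and 0.87. The -0.24 ± 0.19 between K/L and Sox4 did not pass (adjusted p = 0.397). Without wild type array 3 the rises were 1.29 and 1.05, and the difference between the leukaemias passed (adjusted p = 0.0417), as it did with only the 2 leukaemias in the fit (0.0485).

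While Il6ra rose in both leukaemias, Il6st did not. Its brightest probe set read 6.77, 6.85 and 5.55 in wild type, 9.25, 9.25 and 9.32 in Sox4 and 5.13, 5.11 and 4.97 in K/L cells. Sox4 arrays were all above and K/L arrays all below wild type, with wild type array 3 nearest to K/L. Sox4 cells differed from wild type by 2.88 ± 0.28 (adjusted p = 2.67e-05) and K/L cells by -1.32 ± 0.28 (adjusted p = 0.00338). Without wild type array 3 these were 2.46 (adjusted p = 2.69e-07) and -1.74 (adjusted p = 1.17e-06). All 4 of its probe sets rose in Sox4 cells, by 2.88 to 3.98, and 3 of the 4 fell in K/L cells.

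Il1r1 is the signalling receptor of IL-1. It read 4.44, 4.53 and 4.45 in wild type, 6.92, 6.95 and 7.17 in Sox4 and 4.94, 4.86 and 4.76 in K/L cells. No group overlapped another, but the wild type values were under the 40th percentile of their arrays and the K/L values lay around it. It rose by 2.54 ± 0.10 in Sox4 cells (adjusted p = 7.08e-08) and by 0.38 ± 0.10 in K/L cells (adjusted p = 0.0107), with -2.16 ± 0.10 between K/L and Sox4 (adjusted p = 2.69e-07). A second probe set was at the floor of the values, a log2 of 3, on all 9 arrays and was not tested. Averaging both, Sox4 cells exceeded wild type by 1.27 (adjusted p = 8.88e-07) and K/L cells by 0.19 (0.0613).

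Other chains of the IL-1 receptor family did not follow the levels of Il1r1. Il1rap, the accessory chain that Il1r1 needs to signal, read 6.45, 6.94 and 6.86 in wild type, 7.49, 7.26 and 6.86 in Sox4 and 7.05, 6.89 and 6.75 in K/L cells, with overlap between all groups. Its differences from wild type were 0.46 (adjusted p = 0.0619) and 0.15 (0.523), and its probe sets disagreed in sign for K/L. For Sox4 cells it passed with quantile normalisation (0.50, adjusted p = 0.0448), without wild type array 2 (0.55, adjusted p just under 0.05) and without Sox4 array 3 (0.63, 0.0185), and for K/L cells in the mean of all probe sets (0.34, 0.0420).

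Il1r2, the decoy receptor that binds IL-1 without signalling, was higher in K/L cells than in either other group. It read 4.49, 4.37 and 4.11 in wild type, 4.22, 4.34 and 4.06 in Sox4 and 5.23, 5.73 and 5.99 in K/L cells. The K/L arrays lay above all others, and the gene passed the filter through them alone, so its changes are against weak signals. The rise was 1.32 ± 0.19 over wild type (adjusted p = 0.000259) and 1.44 ± 0.19 over Sox4 cells (adjusted p = 0.000289). Il18rap, a chain of the IL-18 receptor, fell by 2.69 in Sox4 and by 1.86 in K/L cells, and Il1rl2, the IL-36 receptor, fell by 3.01 in K/L cells (adjusted p = 1.75e-06). For Il1rl2 the Sox4 difference from wild type was -0.46 (adjusted p = 0.0828), and it passed without Sox4 array 3 (-0.67, adjusted p = 0.0145), and in the mean of all probe sets (-0.36, adjusted p = 0.0302).

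**Figure D4:**
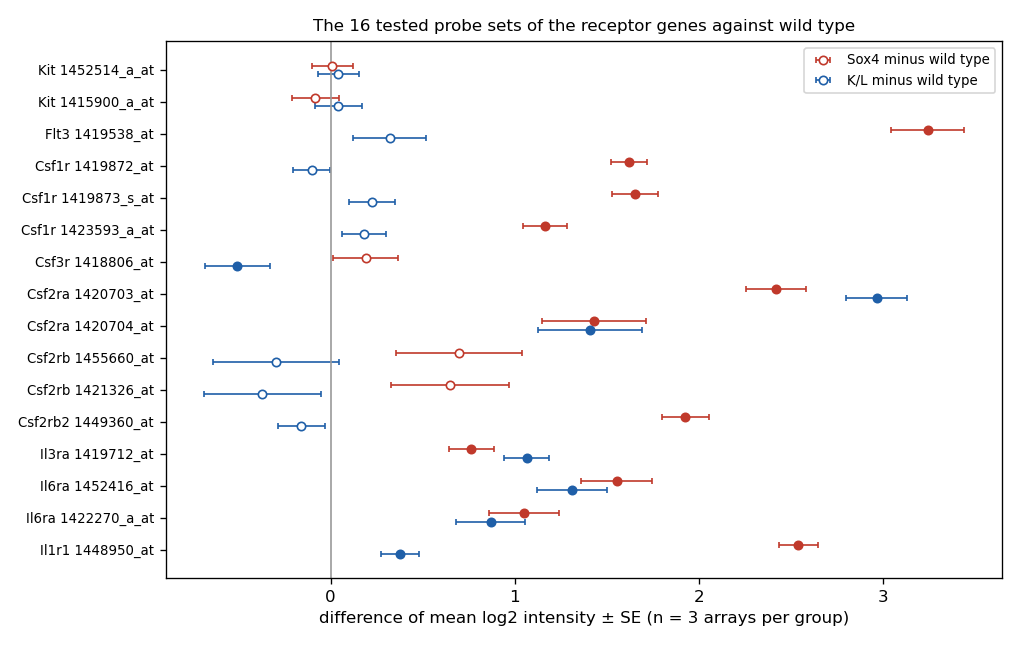
Difference of mean log2 intensity ± SE from wild type (horizontal axis, n = 3 arrays per group) for the 16 tested probe sets of the receptor genes, Sox4 in red and K/L in blue, filled where the adjusted p over 24036 probe sets was under 0.05. In Sox4 cells 11 are filled, all to the right, and in K/L cells 6 are filled to the right and 1, that of Csf3r, to the left.

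Over all probe sets of the receptor genes the counts were alike. Of 16 tested probe sets, 11 rose and 0 fell in Sox4 cells (48.1% of all tested probe sets passed, 24.4% higher and 23.7% lower), 6 rose and 1 fell in K/L cells against wild type (51.3%, 26.3% higher and 25.0% lower), and 1 was higher and 8 were lower in K/L than in Sox4 cells (27.3%, 13.5% higher and 13.8% lower). Without Sox4 array 1 or 2 the last count was 5.

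The genes around these receptors, from lists drawn up by role, gave the following counts, to be read against the shares over all tested genes of 47.8% for Sox4 and 50.6% for K/L against wild type. Of 12 ligand genes, 11 were on the arrays with a single symbol and 1 passed the filter: Csf1, which encodes M-CSF, differed from wild type by 0.13 (Sox4, adjusted p = 0.350) and 0.09 (K/L, adjusted p = 0.526). In the mean of all its probe sets these were 0.68 (adjusted p = 0.00018) and 0.56 (0.00064). Of 7 tested partner chains and decoy receptors, 1 rose and 2 fell in Sox4 cells (42.9% against 47.8% of all tested genes), and 2 rose and 3 fell in K/L cells (71.4% against 50.6%).

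Of 27 tested cytokine and growth factor receptors outside the set, 10 rose and 2 fell in Sox4 cells (44.4% against 47.8% of all tested genes) with a median of 0.28 against 0.03 over all genes. In K/L cells 10 rose and 6 fell (59.3% against 50.6%), with a median of 0.05 against 0.06. Tek, the angiopoietin receptor, rose from 3.08 in wild type to 5.79 in Sox4 cells (adjusted p = 2.11e-06) and measured 3.21 in K/L cells. It passed the filter through the Sox4 arrays alone, and 1 wild type and 1 K/L array read the floor, so the size of its rise is bounded by the floor. Met, the hepatocyte growth factor receptor, rose by 0.61 in Sox4 cells (adjusted p = 0.00152) and fell by 0.43 in K/L cells (adjusted p = 0.00967). Il12rb1, a chain of the IL-12 and IL-23 receptors, rose by 1.43 in K/L cells (adjusted p = 0.000338), and differed by -0.32 in Sox4 cells (0.239).

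Downstream of the cytokine receptors, 11 of 28 tested JAK-STAT and SOCS genes rose and 5 fell in Sox4 cells (57.1% against 47.8% of all tested genes), with a median of 0.17 against 0.03 over all genes. In K/L cells 14 rose and 4 fell (64.3% against 50.6%), with a median of 0.38 against 0.06. Ptpn6, which encodes the phosphatase SHP-1 that dampens cytokine receptor signals, rose by 1.24 ± 0.08 in K/L cells (adjusted p = 1.45e-06) and differed by -0.17 in Sox4 cells (adjusted p = 0.104), which passed with no filter (adjusted p = 0.0193) and with a robust mean-variance trend (0.0335). Tyk2, a Janus kinase, rose by 1.5 in Sox4 and 1.21 in K/L cells in its brightest probe set, while its second had the opposite sign in both, and the mean of the 2 gave 0.48 and 0.28. Bcl6, a repressor that STAT5 is known to lower, differed by -0.99 between K/L and Sox4 cells (adjusted p = 0.0116), and by -3.02 in its second probe set.

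Among 44 tested genes of RAS-MAPK, PI3K and receptor turnover, 12 rose and 13 fell in Sox4 cells (56.8% against 47.8% of all tested genes), and 14 rose and 13 fell in K/L cells (61.4% against 50.6%). Spry2, an inhibitor of receptor tyrosine kinase signalling, fell from 7.78 ± 0.03 in wild type to 3.14 ± 0.25 in K/L cells, near the floor, and differed by 0.21 in Sox4 cells (adjusted p = 0.196). Of the K/L arrays, 2 of 3 read exactly the floor, so the fitted change of -4.64 (adjusted p = 3.95e-09) is limited by it, and the second probe set differed by -2.01. Its relative Spry1 rose by 0.82 in Sox4 cells (adjusted p = 0.000123) and fell by 0.57 in K/L cells (adjusted p = 0.00119), but passed the filter through the Sox4 arrays alone, so its K/L difference is between weak signals. Fer, a cytoplasmic tyrosine kinase gene, fell by 1.16 in Sox4 and by 2.57 in K/L cells, where the mean of its probe sets fell by 1.64.

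In IL-1 receptor signalling, 3 of 13 tested genes rose and 4 fell in Sox4 cells (53.8% against 47.8% of all tested genes), and 5 rose and 3 fell in K/L cells (61.5% against 50.6%). Myd88, the adaptor of IL-1 and Toll-like receptors, rose by 1.01 in Sox4 and 1.07 in K/L cells. Irak3, an inhibitor of that pathway, fell by 0.84 in Sox4 cells and by 2.59 in K/L cells (adjusted p = 0.0100 and 9.22e-06). Nfkbia, which encodes the NF-kappaB inhibitor alpha, fell by 0.54 in Sox4 cells and rose by 0.55 in K/L cells (adjusted p = 0.00417 and 0.00369).

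Of 20 tested transcription factor genes known to act on receptor genes in myeloid cells, 13 rose and 3 fell in Sox4 cells (26.7% of all tested genes were higher and 21.1% lower) with a median of 0.85 against 0.03 over all genes. In K/L cells 8 rose and 5 fell (29.0% and 21.6% of all tested genes), with a median of 0.06, as over all genes. Cebpa itself rose by 0.99 in Sox4 and 0.97 in K/L cells. Meis1 rose by 3.47 ± 0.13, Hoxa9 by 1.71 ± 0.11 and Klf4, a factor of monocyte differentiation, by 3.48 ± 0.30 in Sox4 cells, each with the pattern of Flt3, and their K/L differences from wild type were 0.09, -0.17 and 0.57, none past the threshold. Meis1 passed the filter through the Sox4 arrays alone, so the size of its rise is against a weak signal, and the second Hoxa9 probe set rose by 5.50. Klf4 was above the 40th percentile on 0 of 3 wild type arrays, so its rise is also against a weak signal. Its 2 probe sets differed between K/L and wild type cells by 0.57 and 0.80, neither past the threshold. The brightest differed by 0.87 without K/L array 3 (adjusted p = 0.0297). Tal1 and its partner Lmo2, known from stem cell and erythroid programmes, fell by 2.42 and 1.36 in K/L cells and differed by 0.18 and -0.24 in Sox4 cells (adjusted p = 0.417 and 0.0900), where Lmo2 passed with the robust trend (adjusted p = 0.0241).

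Across the 9 arrays, 2 patterns recur among the receptor genes, given as description since the points share the 3 groups. Flt3, Csf1r, Csf2rb2 and Il1r1 correlated with each other at a Pearson r of 0.967 to 0.987, and Csf2ra with Il3ra at 0.973 and with Il6ra at 0.927. Of 2871 other genes with an SD of at least 0.5, those most like Flt3 were Epx (0.997), which encodes eosinophil peroxidase, and Nrp1 (0.994). Those most like Csf1r were Slc35d3 and Snx7 (both 0.995), those most like Csf2rb2 were Hoxa3 (0.994) and Car1 (0.992), and those most like Il1r1 were Slc2a3 and Pcbp3 (both 0.996). Per2 (0.998) and Rab11fip5 (0.994) were nearest to Csf2ra, Sulf2 (0.995) and Pkd1 (0.994) to Il3ra, and Phactr4 (0.998) and Fhod1 (0.996) to Il6ra. Csf3r was nearest to Camp (0.934), which encodes a granule peptide of late neutrophils, and Neat1 (0.929), and Csf2rb to Rab4a (0.974) and Ctse (0.956). The best r of Kit among these genes was 0.552 with Npy and 0.530 with H2-Aa. With an SD of 0.10, Kit lies under the SD limit, so genes as flat as Kit were not searched.

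Markers of other cells moved with the groups, and fewer cells of a type and less RNA per cell cannot be told apart in these bulk samples. Beside the rise of Csf1r, 9 other monocyte and macrophage markers had a summed level (log2) of 12.02 to 12.11 in wild type, 13.23 to 13.34 in Sox4 and 12.59 to 12.89 in K/L arrays. Of the 9, 7 rose and 1 fell in Sox4 cells (26.7% and 21.1% of all tested genes). In K/L cells 5 rose and 1 fell (29.0% and 21.6%). Beside the rise of Flt3, 7 other dendritic cell markers summed to 8.87 to 9.19, 9.97 to 10.19 and 8.67 to 9.27 in these groups, with Cd209a under the 40th percentile on every array. Of 6 tested, 3 rose and 0 fell in Sox4 cells, and 2 rose and 1 fell in K/L cells, against the same shares. Siglech, Zbtb46 and Itgax did not pass in Sox4 cells. In K/L cells Itgax differed from wild type by 2.36 and Tcf4 by -3.675, so the sum hides opposite changes. Flt3 was also listed with 6 other stem and early progenitor markers. They summed to 12.20 to 12.49 in wild type, 11.56 to 11.60 in Sox4 and 11.73 to 11.78 in K/L arrays. Of these 6, 3 rose and 2 fell in Sox4 cells, and 0 rose and 2 fell in K/L cells, against the same shares. Beside the fall of Csf3r in K/L cells, 9 late neutrophil markers summed to 13.89 to 14.34, 12.02 to 12.11 and 8.10 to 8.69. S100a8 and S100a9 dominated the sum in wild type cells, at 12.64 and 13.47, where Camp, the next highest, read 6.73. In K/L cells S100a8 and S100a9 read 4.64 and 6.24, so the fall of the sum is mainly theirs. Of the 9 neutrophil markers, 0 rose and 5 fell in K/L cells (29.0% and 21.6% of all tested genes). In Sox4 cells, where the sum was also lower than in wild type, 6 rose and 2 fell (26.7% and 21.1%). The 2 that fell in Sox4 cells were S100a8 and S100a9.

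Beside the changes of Csf2ra, Il3ra and Il5ra, 5 eosinophil markers, Il5ra among them, summed to 7.49 to 8.72, 9.88 to 10.27 and 10.82 to 11.16, with Ccr3 under the 40th percentile on every array. The lowest wild type sum is that of array 3, where Csf2rb was also lowest. Of 4 tested markers, 2 were higher and 2 lower in K/L than in Sox4 cells (14.9% and 14.0% of all tested genes). Epx and Prg2 were highest in Sox4 cells, at 7.31 and 9.43. Prg3 and Il5ra were highest in K/L cells, at 10.40 and 9.01. Megakaryocyte and platelet markers, 6 on the arrays, summed to 8.13 to 8.39, 10.37 to 11.05 and 7.78 to 7.82, and Ppbp was under the 40th percentile throughout. Of 5 tested, 5 rose and 0 fell in Sox4 cells (26.7% and 21.1% of all tested genes). In K/L cells 0 rose and 2 fell (29.0% and 21.6%). Pf4 was the highest of them in Sox4 cells, at 10.24 against 3.56 in wild type, where Itga2b, the next highest in Sox4 cells, read 7.56 and 6.83. Gapdh probe sets at the 3′ end of the transcript read 2.68 to 2.91 times those at the 5′ end in wild type, 2.22 to 2.44 times in Sox4 and 1.93 to 2.0 times in K/L arrays, a measure of RNA degradation. The part of these cell markers and of RNA quality in the receptor results was not tested.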

How the data were processed

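Gene expression was measured on 9 Affymetrix mouse arrays, grouped by the titles of the samples. The values deposited by the authors are linear intensities of 45101 probe sets in 1 table, with a floor of 8. The submitters' processing notes name RMA, with a version not given in the sources used here. The deposited intensity values were log2 transformed with no further scaling. Gene symbols came from GEO's platform annotation (2016), and 34754 probe sets with 1 symbol were checked by gene ID against assembly GRCm38.p6, with 0 changed.

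Each gene took its brightest probe set over all arrays (_x_at only if no other). limma 3.58.1 (lmFit and eBayes, R 4.3.3) fitted the 3 groups in 1 model of 9 arrays with 6 residual and 3.71 prior degrees of freedom. p-values were adjusted by Benjamini-Hochberg over 12826 genes, or 24036 probe sets, at 0.05. The smallest two-sided permutation p with 3 against 3 arrays is 0.1, so none is given. The procedure was tested on simulated data with independent normal values and each gene's own spread. Such data hold no shift of a whole array and no shared source of arrays, so those limits were not tested. The number of arrays limits the precision. The members and lists were chosen with earlier results of these data known. Named genes are the members, up to 4 per list and comparison with the smallest p (not all are printed), the partner chains Il6st, Il1rap and Il1r2, Csf1, Sox4 and Cebpa, and the 2 genes most like each member. Alternatives changed the probe set rule, filter, scaling, value scale, samples in the fit, variance model and replicate block, and left out each array.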

Additional observations from a re-analysis of the deposited data

Results flagged for a closer look

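The test of K/L against Sox4 cells is the test of whether their differences from the shared wild type arrays differ. It passed for 6 receptor genes: Flt3 (-2.92, with 0.32 in K/L and 3.24 in Sox4 cells against wild type), Csf1r (-1.72, with -0.10 and 1.62), Csf3r (-0.70, with -0.51 and 0.19), Csf2ra (0.55, with 2.97 and 2.42), Csf2rb2 (-2.09, with -0.16 and 1.93) and Il1r1 (-2.16, with 0.38 and 2.54). For Csf2ra the second probe set showed -0.02.

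Among the genes named above from the lists drawn up by role, 5 passed in both comparisons with wild type in opposite directions. Most of those genes were named for their small p, and the rest of the lists was not searched, so no share is read. Il5ra differed by 3.96 between K/L and Sox4 cells (2.15 and -1.82 against wild type) and Nfkbia by 1.09 (0.55 and -0.54). Il6st differed by -4.21 (-1.32 and 2.88), Met by -1.04 (-0.43 and 0.61) and Spry1 by -1.39 (-0.57 and 0.82).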

How the results depend on the processing

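In Sox4 against wild type the count of receptor genes past the threshold was 6 with a stricter filter at the 60th percentile and 7 under the other alternatives. For K/L against wild type it was 4 to 5, and for K/L against Sox4 5 to 9. With each array left out in turn these counts were 6 to 8, 4 to 6 and 3 to 9, the probe set counts 10 to 13, 6 to 9 and 5 to 11, and the counts over all genes 5103 to 6250, 5527 to 6558 and 2648 to 4751. The fits without a Sox4 array tested 9 receptor genes, since Csf2rb2 then failed the filter. Over all alternatives and left-out arrays, single receptor genes lost the threshold 10 times for K/L against wild type, 9 times for K/L against Sox4 and 0 times for Sox4 against wild type, and passed it 1, 12 and 1 times where they had not. With arrays centred on their median, 2546 genes were higher and 1456 lower in K/L than in Sox4 cells, against 1905 and 1797 with the deposited scaling.

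Some signs turned, all without a call unless stated. With centred arrays, Cebpa turned to 0.060 and Csf1 to 0.037 for K/L against Sox4, and Csf1 to 0.041 with quantile normalisation. In the mean of all probe sets, Il1rap turned to 0.03 for K/L against Sox4, Csf1r to 0.10 and Meis1 to -0.12 for K/L against wild type, and Kit to -0.04 for Sox4 against wild type. With arrays left out, K/L against Sox4 ranged over -0.071 to 0.026 for Cebpa, -0.12 to 0.027 for Csf1, -0.037 to 0.11 for Kit and -0.0074 to 0.13 for Myd88. K/L against wild type ranged over -0.028 to 0.097 for Kit, -0.0010 to 0.25 for Il1rap, -0.038 to 0.19 for Meis1 and -0.071 to 0.23 for Tek, and Sox4 against wild type over -0.071 to 0.050 for Kit. The gene Sox4 ranged from -0.11 to 6.85 (K/L) and -0.92 to 5.91 (Sox4) against wild type, since without a leukaemic array another of its probe sets was the brightest, and the Sox4 falls were then past the threshold.

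Replicate numbers did not pair the arrays: deviations of same-numbered arrays correlated at -0.0235 to 0.0822. With the number as a replicate block, 4 receptor genes passed for K/L against wild type (Csf3r missed it, adjusted p = 0.0556), 7 for Sox4 against wild type and 6 for K/L against Sox4, with 6369, 5999 and 3503 genes in all, and Il1rl2 passed for Sox4 against wild type (-0.46, adjusted p = 0.0163). Signal over background limits Flt3, Csf2rb2 and Il1r1, whose wild type and K/L values lie near or under the 40th percentile.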
